A study of Mus musculus with 9 samples.

Results

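The dual-specificity MAP kinase phosphatases considered are Dusp1, Dusp2, Dusp4, Dusp5, Dusp6, Dusp7, Dusp8, Dusp10, Dusp14 and Dusp16, 10 of the 18194 genes named on an Affymetrix mouse array, measured by 16 of its 45101 probe sets. A probe set was taken when the platform annotation gave it 1 symbol only and that symbol was one of these. RNA came from NIH 3T3 cells, an established mouse fibroblast line, on 9 arrays in 3 groups of 3 biological replicates numbered 1, 3 and 7. All cells were serum-starved, and all were given cycloheximide, which blocks translation, at 3 µg/ml for 2 h. The control group had no further drug. The second group had cytochalasin D at 2 µM for 90 min. The third group had latrunculin B at 5 µM and cytochalasin D at 2 µM for 90 min according to its agent label and the series design, although its sample titles name latrunculin B alone, and no group had latrunculin B without cytochalasin D by its agent label. The third group is called the double-drug group below. Because every group was under cycloheximide, the differences are between transcripts in cells with translation blocked, and phosphatase protein was not measured.

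These enzymes remove phosphate from the threonine and the tyrosine that switch on MAP kinases, and so end signalling by ERK, JNK and p38. Dusp1, Dusp2, Dusp4 and Dusp5 encode nuclear enzymes whose genes are known as immediate-early or inducible genes. Dusp6 and Dusp7 encode cytoplasmic enzymes that prefer ERK. Dusp8, Dusp10 and Dusp16 encode enzymes that prefer JNK and p38 and are found in the cytoplasm or in both compartments, and Dusp14 encodes a small enzyme that lacks the MAP kinase binding domain of the others. Actin bears on such genes through MRTF, a coactivator of serum response factor (SRF) that monomeric actin holds inactive. Cytochalasin D frees MRTF from actin and latrunculin B does not. SRF binds a sequence known as the CArG box.

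The bases just before the transcript start are shown for 3 members. Dusp5 is shown because its transcript changed most, Dusp1 as the other nuclear member with strong signal, and Dusp6 as the cytoplasmic member for comparison. Each is the 250 bases before the start of a RefSeq transcript, assembly GRCm38.p6, read 5′ to 3′ on the gene's own strand, and capitals mark matches to the CArG box or to TGACG, the core of the cyclic AMP response element. The windows are chr19:53528895-53529144 on the plus strand, chr17:26508473-26508722 on the minus strand and chr10:99262981-99263230 on the plus strand.
Dusp5: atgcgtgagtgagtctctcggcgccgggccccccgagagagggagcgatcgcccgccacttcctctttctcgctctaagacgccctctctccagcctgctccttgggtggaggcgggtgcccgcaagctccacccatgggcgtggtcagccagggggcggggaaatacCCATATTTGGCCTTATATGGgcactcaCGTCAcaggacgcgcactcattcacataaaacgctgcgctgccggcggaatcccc
Dusp1: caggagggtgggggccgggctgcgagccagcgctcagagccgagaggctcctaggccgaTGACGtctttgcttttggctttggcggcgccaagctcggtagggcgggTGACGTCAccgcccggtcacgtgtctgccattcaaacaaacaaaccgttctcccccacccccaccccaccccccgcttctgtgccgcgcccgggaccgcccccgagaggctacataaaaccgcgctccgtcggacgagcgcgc
Dusp6: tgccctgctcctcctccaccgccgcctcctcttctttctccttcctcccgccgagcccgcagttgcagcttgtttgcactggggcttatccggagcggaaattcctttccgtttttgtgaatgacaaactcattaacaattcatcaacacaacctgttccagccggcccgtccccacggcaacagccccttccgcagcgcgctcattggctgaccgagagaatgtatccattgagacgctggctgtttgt

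Dusp5 held 2 CArG box matches side by side, CCATATTTGG at bases -82 to -73 and CCTTATATGG at bases -72 to -63, counted back from the transcript start, followed by 1 TGACG on the opposite strand at bases -55 to -51. Of 32851 windows of this length for all RefSeq genes, 482 (1.47%) held at least 1 CArG box match and 6 (0.0183%) held 2 or more. Both strands were searched for the CArG box, for TGACG and for the AP-1 site TGANTCA. Srf, the gene of SRF itself, was another with 2 CArG matches, at bases -82 to -73 and -62 to -53. Among the 9 members with a window (there was none for Dusp4 in the table used), Dusp5 was the 1 with a CArG match. TGACG was found in 4 of the 9, Dusp1, Dusp5, Dusp8 and Dusp16, against 17.8% of all windows, and TGANTCA in 0 of 9, against 6.75%. The 3 matches of Dusp1 and the 4 of Dusp8 include pairs that overlap by 2 bases on opposite strands, 1 pair in Dusp1 and 2 in Dusp8. The windows of Dusp7, Dusp8, Dusp14, Dusp16 and Srf belong to transcripts that start inside the gene and not at its outermost start. For Dusp16, on the minus strand, the window ends at base 134792878, while the gene starts at base 134807063. A match is a run of letters and not a measured binding site, and a window without one says nothing about more distant DNA.

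**Figure D1:**
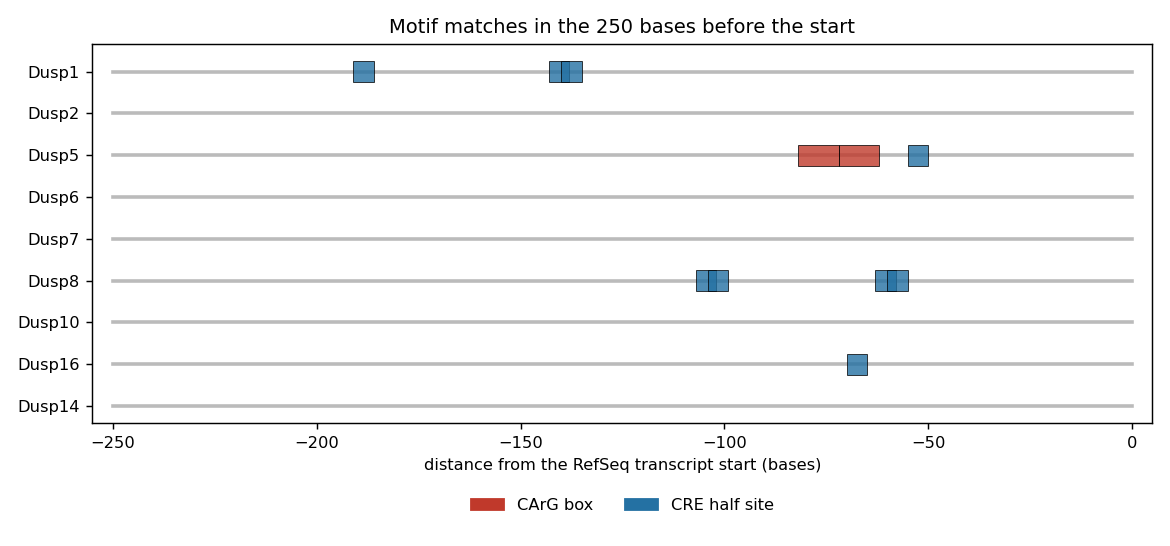
Matches to the CArG box (red) and to TGACG (blue, marked as CRE in the key, either strand) in the 250 bases before a RefSeq transcript start, for the 9 members with a window; the x axis is the distance from the start in bases. Dusp5 carries 2 adjoining CArG matches between bases -82 and -63.

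Intensities were on the linear scale as normalized by the authors, and the 9 arrays had medians of 7.57 to 7.84. A probe set was tested when at least 3 arrays had it above their 40th percentile, which was 6.16 to 6.35. Of all probe sets 27010 passed, among them 15 of the 16 of the phosphatases, for 9 of the 10 genes. Changes are differences of log2(intensity + 16) from limma, whose standard error (SE) rests on all 9 arrays, and a probe set is called when its p adjusted over all 27010 (Benjamini-Hochberg, two-sided) is under 0.05. Where a gene had several tested probe sets, the one with the highest mean stands for it. All 10 fibroblast markers checked were tested, with summed intensities of 125629 to 135967 over the arrays and 0 calls (limma). The 5 endothelial markers checked lay too low to be tested. Of 7 leukocyte markers 4 were tested, with Cd14 at a mean of 196 and Lyz2 at 138 in controls, while Ptprc, Itgam and Cd68 lay too low. Of 5 epithelial markers 3 were tested, with Krt14 at 129 in controls, while Krt8 and Krt18 lay too low. Of 5 skeletal muscle markers 2 were tested, and Myod1, Myog and Ckm lay too low. None of these markers was called in the 3 comparisons (limma). The MRTF-SRF target Srf rose with cytochalasin D, from 187 ± 30.9 to 1475 ± 311 (SD, n = 3). With both drugs it was 827 ± 164, a log2 change of 2.05 from control (limma adjusted p = 0.0393). Between the drug groups it was not called (0.82, adjusted p = 0.504). Acta2 and Vcl, checked beside it, were called with cytochalasin D (2.08 and 1.33, adjusted p = 0.00337 and 0.0195). With both drugs they were not (1.02 and 0.65, adjusted p = 0.167 and 0.541).

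Dusp5 rose about 8-fold with cytochalasin D and about 3-fold with both drugs. Dusp7 fell to 0.71 of its control level with cytochalasin D. No other member passed the test in any comparison. With cytochalasin D against control, 2 of 9 genes were called, 1 higher and 1 lower, while 1.57% of all probe sets tested were called, 1.14% higher and 0.422% lower. Without overlap between the groups stood 4 genes, 3 of them higher (Dusp1, Dusp5 and Dusp16) and 1 lower (Dusp7), against 11.5% of all probe sets tested (5.05% higher, 6.45% lower). In the double-drug group against control, 1 of 9 was called, higher. Of all probe sets 0.111% were called, 0.1% higher and 0.0111% lower. The groups did not overlap for 3 genes, Dusp5 and Dusp16 (higher) and Dusp7 (lower), against 8.08% of all (4.09% higher, 3.99% lower). Between cytochalasin D and both drugs 1 of 9 was called, higher, and 0.259% of all probe sets were (0.248% higher, 0.0111% lower). Here too 0 of 9 were called with the block, against 0.367% of all. The groups did not overlap for 4 genes, Dusp1, Dusp5 and Dusp10 (higher) and Dusp7 (lower), against 6.26% of all (2.92% higher, 3.33% lower). Each pair of these comparisons shares a group, so their counts are not independent of each other.

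**Figure D2:**
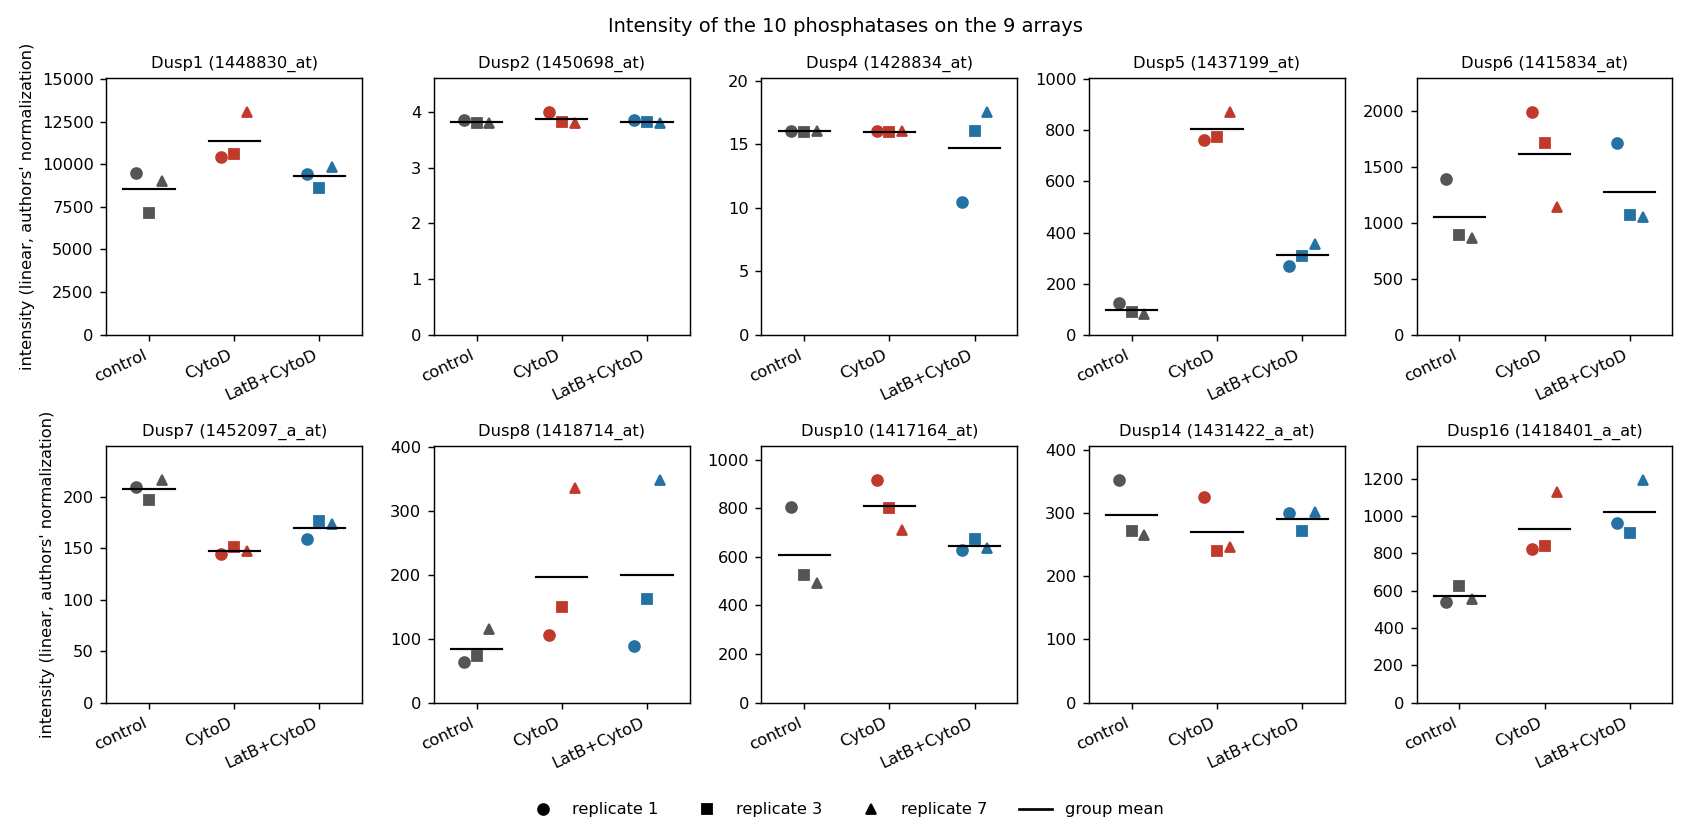
Intensity (y axis, linear, from 0) of each gene's main probe set, or of the 1 probe set of Dusp2, in control, cytochalasin D (CytoD) and double-drug (LatB+CytoD) arrays; each point is an array, its shape gives the replicate number, and the bar is the mean of 3. For Dusp5 the 3 groups are apart, and for Dusp8 replicate 7 is the highest point of every group.

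The nuclear phosphatases come first. Dusp5, which acts on ERK, was the 1 nuclear member called. Its probe set 1437199_at read 124, 89.1 and 81.5 in controls of replicates 1, 3 and 7. With cytochalasin D it read 765, 774 and 873. With both drugs it read 268, 309 and 355. The lowest cytochalasin D array lay above the highest double-drug array, and the lowest double-drug array above the highest control. Group means were 98.3 ± 22.8, 804 ± 60.1 and 311 ± 43.3 (SD, n = 3), or 8.18 times control with cytochalasin D and 3.16 times control with both drugs.

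The rise of Dusp5 with cytochalasin D was 2.86 on the log2 scale (SE 0.16, limma adjusted p = 0.000923). Within replicate numbers it was 2.48, 2.91 and 3.19, and its adjusted p ran from 0.00184 to 0.00913 with single arrays left out. With both drugs Dusp5 lay 1.52 above control (SE 0.16, adjusted p = 0.0393), and 1.02, 1.63 and 1.93 within replicate numbers. This call ended with the replicate number as a block (adjusted p = 0.0623), a fit that called 0.455% of all probe sets. Without control replicate 1 it held (adjusted p = 0.026), and without any other single array it ended, with adjusted p from 0.0817 to 0.176 and a log2 change from 1.42 to 1.62.

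The direct comparison of the drug groups put Dusp5 1.33 higher with cytochalasin D alone than with both drugs (SE 0.16, limma adjusted p = 0.0384). The difference was 1.46, 1.28 and 1.26 within replicate numbers, so that 3 of 3 ran the same way. It ended as a call with the replicate block (adjusted p = 0.0871), which called 0.367% of all probe sets. It held without control replicate 1 (adjusted p = 0.023), and with any other single array left out the adjusted p was 0.0644 to 0.194. The size moved little, from 1.24 to 1.43, when single arrays were left out.

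Dusp1, which encodes MKP-1, a phosphatase of p38, JNK and ERK, was the brightest probe set of the family, 1448830_at. It read 9465, 7137 and 9041 in controls. With cytochalasin D it read 10455, 10635 and 13085, all above the controls. With both drugs it read 9456, 8598 and 9867, which overlaps the controls. The change with cytochalasin D was 0.42 (SE 0.13, 95% interval 0.10 to 0.73, limma adjusted p = 0.307) and was not called. It was 0.13 with both drugs (interval -0.19 to 0.45, adjusted p = 1.0) and 0.29 between the drug groups (interval -0.03 to 0.60, adjusted p = 1.0). An interval here is limma's for the 1 probe set, without adjustment over the others.

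Dusp2 and Dusp4 gave little or no measurable signal. Dusp2, a phosphatase best known from lymphocytes, read 3.80 to 4.01 on the 9 arrays, under the 40th percentile of each, and was not tested. Dusp4, a phosphatase of ERK and JNK, read 10.4 on double-drug replicate 1 and 15.9 to 17.6 on the other 8 arrays, and 3 of these held 1 and the same value, 16.1. Its change was 0.00 with cytochalasin D (interval -0.19 to 0.19) and -0.07 with both drugs (interval -0.26 to 0.12), neither called. With 16 added before the logarithm, a fall from this level shows as a small change.

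Of the cytoplasmic ERK phosphatases 1 of 2 fell with cytochalasin D. Dusp7, measured by 1452097_a_at, read 210, 197 and 217 in controls. With cytochalasin D it read 145, 151 and 147. With both drugs it read 159, 177 and 174. All cytochalasin D arrays lay below all double-drug arrays, and those below all controls. Group means were 208 ± 10.1, 148 ± 3.13 and 170 ± 9.55 (SD, n = 3). Dusp7 fell by 0.45 on the log2 scale with cytochalasin D (SE 0.05, limma adjusted p = 0.00658), with -0.49, -0.35 and -0.51 within replicate numbers. The call held with each single array left out, at an adjusted p of 0.00658 to 0.0294. With both drugs its change was -0.27 (SE 0.05, interval -0.38 to -0.16, adjusted p = 0.16), and between the drug groups -0.18 (interval -0.29 to -0.07, adjusted p = 0.504). Neither was called.

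Only 1 of the 3 probe sets of Dusp7 was called. The second, 1427416_x_at, whose suffix marks probes that may bind other transcripts, averaged 168 ± 16.4 in controls, 107 ± 11.3 with cytochalasin D and 135 ± 22.5 with both drugs (SD, n = 3). Its cytochalasin D arrays lay below its controls, with a change of -0.58 (SE 0.13, limma adjusted p = 0.115), but overlapped the double-drug arrays. The third, 1460393_a_at, was dim, read 44.3, 14.1 and 9.07 in controls, and had a change of -0.10 (SE 0.37, adjusted p = 1.0). Over the 9 arrays the first and second correlated at r = 0.89, while the third correlated with them at 0.03 and -0.17. These correlations are descriptions over arrays that share groups.

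Dusp6, the cytoplasmic partner of Dusp7 in ERK feedback and a familiar readout of ERK activity, read 1390, 890 and 865 in controls. With cytochalasin D it read 1991, 1716 and 1143, and with both drugs 1710, 1066 and 1050. Replicate 1 was the highest of every group, and the groups overlap. The change was 0.61 with cytochalasin D (SE 0.30, interval -0.10 to 1.33, limma adjusted p = 0.596) and 0.28 with both drugs (interval -0.44 to 0.99, adjusted p = 1.0). Within replicate numbers, which may not pair these arrays, the cytochalasin D array was above the control of the same number in 3 of 3, by 0.51, 0.93 and 0.40. With the block the adjusted p was 0.0764 with cytochalasin D and 0.524 with both drugs, so that no fit called it.

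**Figure D3:**
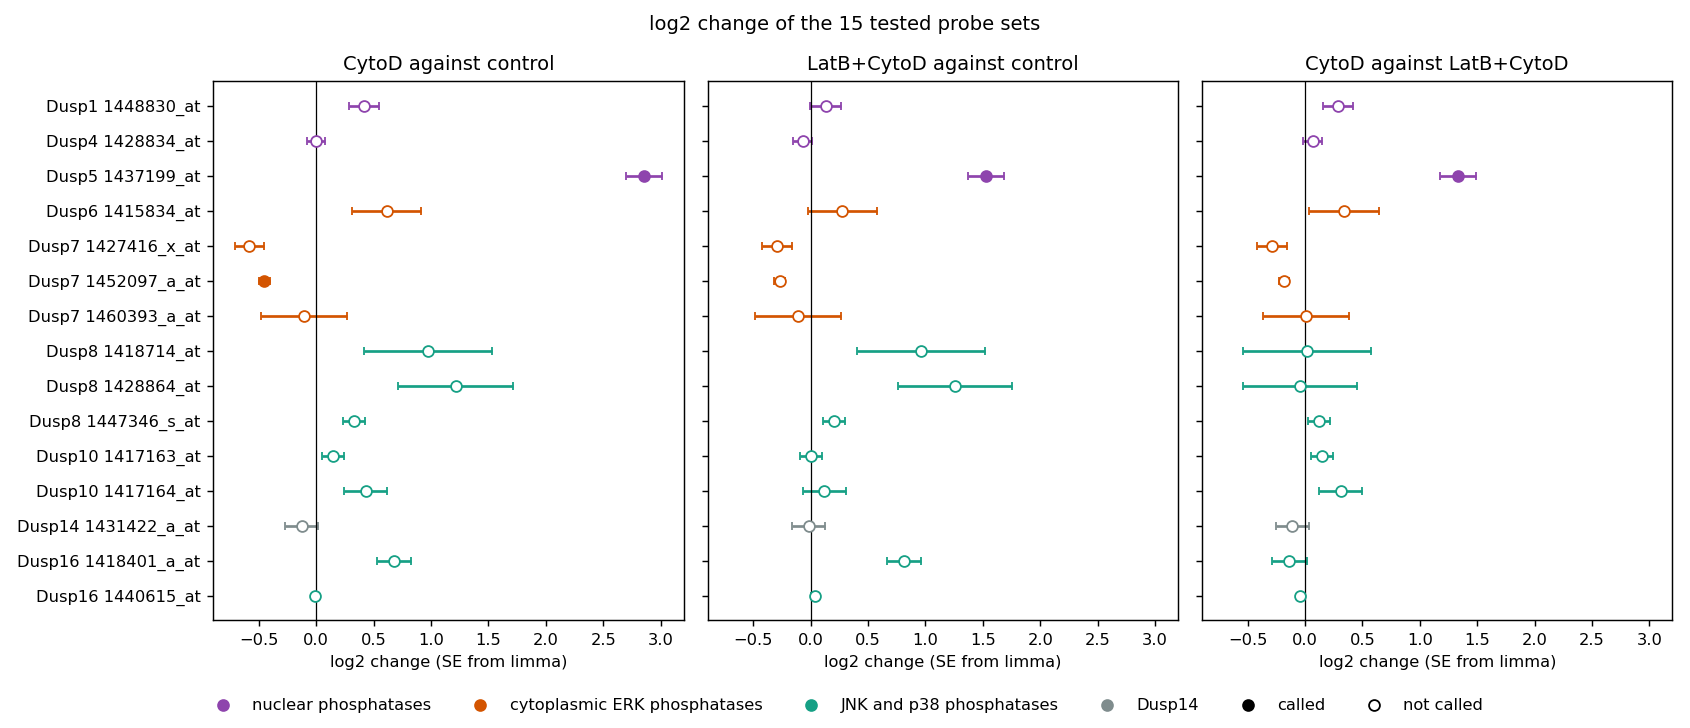
log2 change (points) with its SE from limma (bars) for the 15 tested probe sets in the 3 comparisons, coloured by class; filled points are called at an adjusted p under 0.05. Dusp5 is filled in all 3 panels, at 2.86, 1.52 and 1.33, and 1452097_a_at of Dusp7 in the first, at -0.45. With the replicate number as a block, Dusp5 was called in the first panel only.

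The phosphatases of JNK and p38 had 0 calls among 3 genes in each comparison (limma). At an unadjusted p under 0.05 (limma, main probe sets only) there was 1 with cytochalasin D, 1 with both drugs and 0 between the drug groups. Dusp16, which encodes MKP-7, read 538, 624 and 554 in controls on 1418401_a_at. It read 825, 840 and 1128 with cytochalasin D and 961, 910 and 1195 with both drugs. All 6 drug arrays lay above all 3 controls, and the drug groups overlap. The change was 0.68 with cytochalasin D (SE 0.15, interval 0.32 to 1.04, adjusted p = 0.116) and 0.81 with both drugs (SE 0.15, interval 0.45 to 1.17, adjusted p = 0.182). Between the drug groups it was -0.14 (interval -0.50 to 0.22, adjusted p = 1.0). Its other probe set, 1440615_at, was dim at 9.16 to 11.6 and had changes of -0.01 and 0.04.

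Dusp8, best known from brain and heart, had the largest SE of the main probe sets. Its main probe set 1418714_at read 63.8, 72.4 and 115 in controls. It read 105, 149 and 336 with cytochalasin D and 88.2, 161 and 348 with both drugs. Replicate 7 was the highest of each group, and the SDs of 123 and 134 in the drug groups came near their means of 197 and 199. Each drug array exceeded the control of the same replicate number, by 0.60, 0.90 and 1.43 with cytochalasin D and by 0.39, 1.0 and 1.48 with both drugs. The changes of 0.98 (SE 0.56, limma adjusted p = 0.697) and 0.96 (SE 0.56, adjusted p = 1.0) were not called, nor were they with the block (adjusted p = 0.09 and 0.197). Between the drug groups the difference was 0.02, with an interval of -1.31 to 1.34.

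The second probe set of Dusp8, 1428864_at, followed the first (r = 0.96 over the 9 arrays). It read 41.6, 38.1 and 60.1 in controls, 85.7, 93.4 and 250.1 with cytochalasin D and 85.1, 102 and 258 with both drugs. All drug arrays lay above all controls, with changes of 1.21 (SE 0.50, limma adjusted p = 0.471) and 1.26 (SE 0.50, adjusted p = 0.892). The third, 1447346_s_at, averaged 12.0 in controls, 19.3 with cytochalasin D and 16.4 with both drugs. Its drug arrays also lay above its controls, with changes of 0.33 (SE 0.10, limma adjusted p = 0.25) and 0.20 (SE 0.10), neither called. The unadjusted p of 1428864_at was 0.0455 with cytochalasin D and 0.0398 with both drugs (limma). For 1447346_s_at it was 0.0115 and 0.0724.

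**Figure D4:**
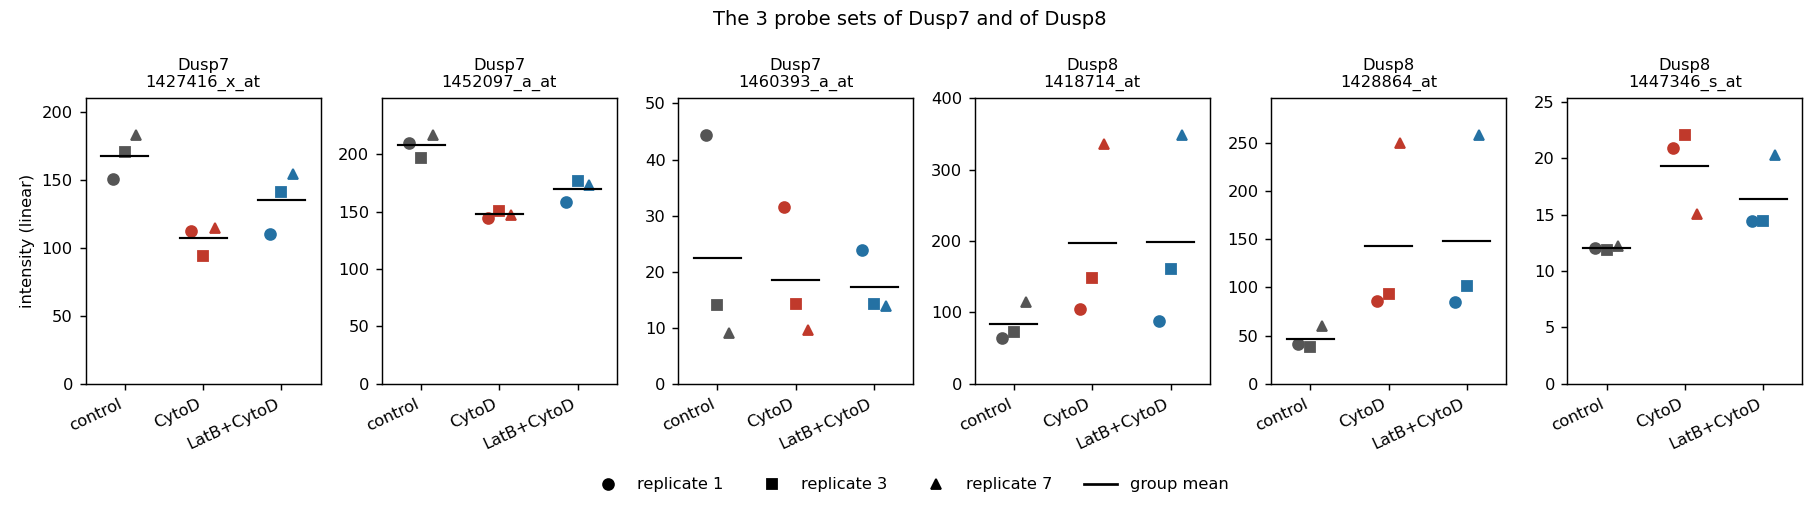
Intensity (y axis, linear, from 0) on each array for the 3 probe sets of Dusp7 and the 3 of Dusp8, with point shapes for replicate numbers and bars for group means. The third Dusp7 probe set, 1460393_a_at, lies below control in both drug groups in replicate 1 but not in replicates 3 and 7. The first 2 probe sets of Dusp8 have replicate 7 highest in each group.

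Dusp10, which encodes MKP-5, read 807, 524 and 494 in controls on 1417164_at. It read 918, 803 and 710 with cytochalasin D and 628, 674 and 635 with both drugs. Control replicate 1 lay inside the range of the cytochalasin D arrays, whereas all double-drug arrays lay below them. The change was 0.43 with cytochalasin D (SE 0.19, interval -0.01 to 0.87, limma adjusted p = 0.509) and 0.12 with both drugs (interval -0.33 to 0.56, adjusted p = 1.0). Between the drug groups the change was 0.31 (interval -0.13 to 0.76), and limma did not call it. The dimmer 1417163_at read 12.1 to 21.9 and had changes of 0.15 and 0.00.

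Dusp14, the enzyme without the docking domain, read 353, 272 and 266 in controls. It read 326, 240.0 and 246 with cytochalasin D and 300.1, 272 and 302 with both drugs. The groups overlap, and the changes of -0.13 (interval -0.47 to 0.22) and -0.02 (interval -0.36 to 0.33) were not called in limma (adjusted p = 0.938 and 1.0).

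Set against each other by compartment, 1 of 3 tested nuclear genes was called higher with cytochalasin D and 0 lower. Of the 2 cytoplasmic ERK phosphatases 0 were called higher and 1 lower. These calls were Dusp5 and Dusp7, so each rests on 1 gene. Of all probe sets tested 1.14% were called higher and 0.422% lower. The median log2 change was 0.42 for the 3 nuclear genes, 0.08 for the 2 cytoplasmic ones and 0.68 for the 3 JNK and p38 phosphatases, beside 0.00 for all probe sets tested. With both drugs 1 of 3 nuclear and 0 of 2 cytoplasmic genes were called (limma, at an unadjusted p under 0.05 1 of the 2). Of all probe sets 0.111% were called. The medians were 0.13, 0.00 and 0.81, beside 0.00. Between the drug groups 1 nuclear gene was called, beside 0.259% of all probe sets. The medians there were 0.29, 0.08 and 0.02, beside -0.01. The nuclear call in each of these last comparisons was Dusp5, and it ended with the replicate block (limma adjusted p = 0.0623 and 0.0871). Each class held members apart from its median: the nuclear changes with cytochalasin D ran from 0.00 for Dusp4 to 2.86 for Dusp5, and the cytoplasmic ones from -0.45 for Dusp7 to 0.61 for Dusp6. No test was made between classes of 2 and 3 genes.

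Over the 9 arrays, log2(intensity + 16) values of Dusp5 and Dusp7 correlated at r = -0.94. Those of Dusp5 correlated with Dusp1 at 0.79, Dusp16 at 0.74, Dusp10 at 0.70, Dusp6 at 0.60, Dusp8 at 0.58, Dusp4 at 0.05 and Dusp14 at -0.26. The genes most like Dusp5 among 12642 compared were Oat, ornithine aminotransferase, Csrp1, a LIM protein of the actin cytoskeleton (r = 0.995 for both), and Dstn, the actin depolymerizing factor destrin (0.993). Their changes with cytochalasin D were 0.78, 1.66 and 0.83, and with both drugs 0.38, 0.84 and 0.43, both smaller than those of Dusp5. Most like Dusp7 were Ccl2, a monocyte chemokine (r = 0.992), AI467606 (0.988) and Gadd45b, a stress-response gene (0.972), with changes of -1.79, -0.68 and -1.21 with cytochalasin D. The points share groups and arrays, and the correlations are given without a p.

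Other genes of the MAP kinase pathway are given by role, beside 1.57% of all probe sets called with cytochalasin D, 0.111% with both drugs and 0.259% between the drug groups. Of the MAP kinases themselves 0 of 7 tested were called in any of the 3 comparisons (limma; at an unadjusted p under 0.05 there were 0, 0 and 1), with changes between -0.09 and 0.17 with cytochalasin D. Of the kinases upstream of them 1 of 15 was called with cytochalasin D, Map2k4, a kinase of JNK and p38. It rose from 425 ± 31.8 in controls to 642 ± 54.0 (SD, n = 3). Its log2 change was 0.58 (SE 0.09, limma adjusted p = 0.0289). With both drugs 0 of 15 were called (limma, 1 at an unadjusted p under 0.05). Of 13 substrates and downstream kinases 1 was called with cytochalasin D, Elk3, an SRF partner that represses transcription. Elk3 fell by 0.25 on the log2 scale (1698 ± 65.0 to 1423 ± 26.2, SD, n = 3, limma adjusted p = 0.0394, or 0.0634 with the replicate block, which ends the call). With both drugs 0 of the 13 were called (limma, 1 at an unadjusted p under 0.05). Of 13 other phosphatases of these kinds 0 were called in any comparison (limma; 2, 3 and 0 at an unadjusted p under 0.05).

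Of 23 tested genes known to respond to ERK, 9 were called higher with cytochalasin D and 0 lower (limma), beside 1.14% and 0.422% of all probe sets tested. Their median log2 change was 1.07, with a range of -0.92 to 2.59 and 17 of 23 above 0. Of all probe sets tested 12330 of 27010 lay above 0. With both drugs 4 were called higher and 0 lower, beside 0.1% and 0.0111% of all probe sets. The median was 0.80, with a range of -0.76 to 2.01 and 19 of 23 above 0. More of all probe sets lay above 0 in this comparison, 15161 of 27010. Some of them, such as Errfi1 and Zfp36, are SRF targets as well. The lowest adjusted p with cytochalasin D was that of Zfp36, a protein that destabilizes mRNA (2.59), then Ier2 (2.13), Junb, a subunit of AP-1 (1.51), and Errfi1, an inhibitor of the EGF receptor (2.31). The 4 with both drugs were Ier2 (1.73), Zfp36 (2.01), Junb (0.99) and Fosl1, another subunit of AP-1 (1.22). Between the drug groups 0 of the 23 were called (limma, 8 at an unadjusted p under 0.05), beside 0.259% of all probe sets.

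**Figure D5:**
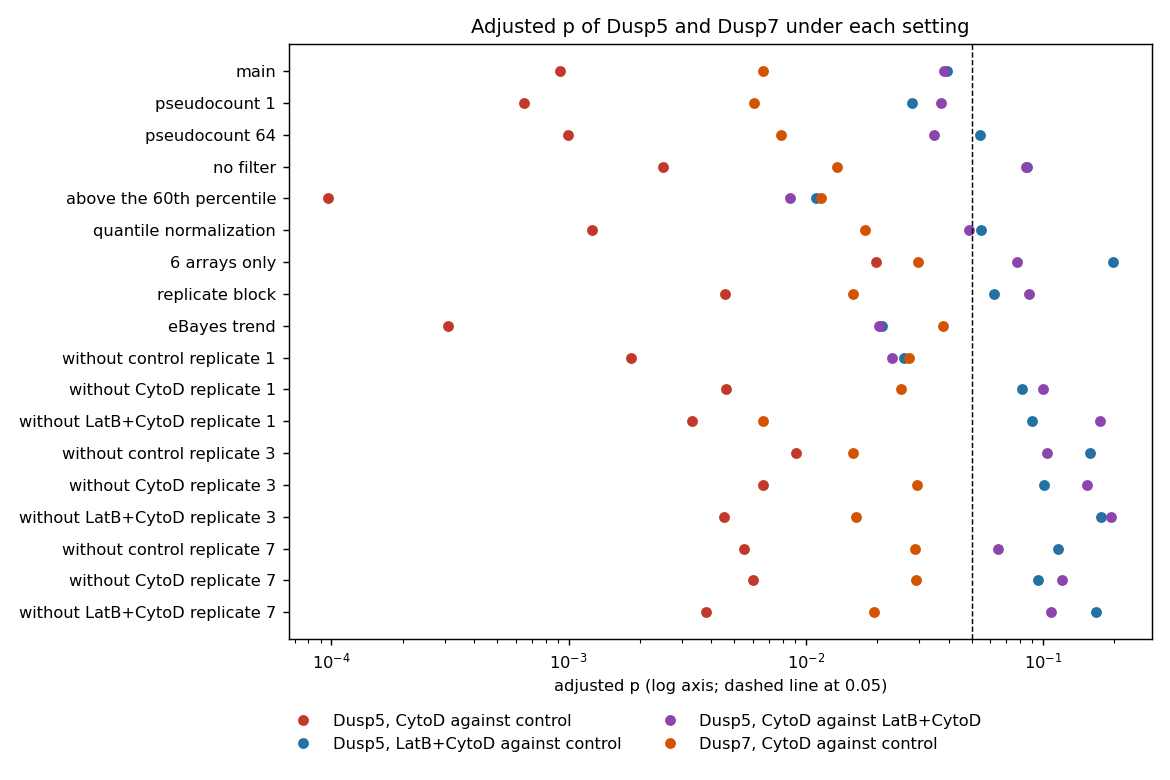
Adjusted p (x axis, log scale, dashed line at 0.05) of Dusp5 in the 3 comparisons and of Dusp7 with cytochalasin D against control, for the fit reported (main) and each alternative. Both stay left of the line with cytochalasin D against control, and the other 2 comparisons of Dusp5 cross it in most alternatives.

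The plot of adjusted p by setting shows under which settings the calls held. Why a call ended was not tested. Leaving out cytochalasin D replicate 1, 3 or 7 kept the Dusp5 change of both drugs against control at 1.52. Those arrays are outside that comparison, yet the call ended each time (limma adjusted p = 0.0817, 0.101 and 0.0958). Both calls of cytochalasin D against control, Dusp5 and Dusp7, held in each of the 17 alternatives drawn there, which keep the main probe set. On its lowest-mean probe set Dusp7 was not called. The Dusp5 calls that involve the double-drug group held in 4 of 17 alternatives against control and in 6 of 17 between the drug groups.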

How the data were processed

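Per the labels' protocols, total RNA of serum-starved NIH 3T3 cells was hybridised as biotin-labelled cRNA to Affymetrix arrays. The deposited intensities, 1 per probe set and array on a linear scale, had been normalized by the authors. MAS5 and GCRMA are listed in the submitters' processing notes, and which of them made the values is not given in the sources used here. No scanner files were used here, so background and normalization could not be redone, and depth in the sense of reads does not apply: the number of arrays limits the precision. The 64 control probe sets were left out. Of the 36 pairs of arrays 0 were identical.

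Symbols came from the platform annotation, updated by gene identifier (GRCm38.p6 names). log2(intensity + 16) was fitted in R 4.3.3 with limma 3.58.1, 1 coefficient per group and no block, on probe sets above the 40th percentile of their own array on at least 3 arrays, with Benjamini-Hochberg adjustment over 27010 probe sets. The fit was tested on simulated data with independent noise on each array. That test holds no pairing of replicate numbers, so it cannot decide between the fits with and without the block. Named genes are all members, the 3 genes most correlated with each called member, and up to 4 called genes of each pathway list and comparison. The members, classes and lists were chosen with earlier results of these data known. Promoter windows are RefSeq's (GRCm38.p6); the motif search used the 250 bases before the start.

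Replicate numbers were checked as pairs by correlating deviations from group means over tested probe sets. Same-numbered arrays correlated at 0.413 to 0.834 between control and double-drug groups and at 0.411 to 0.756 between the drug groups. Between control and cytochalasin D they correlated at 0.710, 0.0763 and 0.653. Differently numbered arrays correlated at -0.722 to 0.391. The numbers may therefore pair the arrays, but the series design names no pairing, and the fit reported has no block. If they do pair them, the fit with the block applies, and in it neither Dusp5 call that involves the double-drug group held (limma adjusted p = 0.0623 and 0.0871). Alternatives were pseudocounts of 1 and 64, no filter, a 60th percentile filter, quantile normalization, a fit of 6 arrays, the replicate block, an intensity trend in eBayes, other probe sets of a gene, and each array left out.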

Additional observations from a re-analysis of the deposited data

How the results depend on the processing

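The number of phosphatase genes called with cytochalasin D against control was 2 in limma under all 18 alternatives, with single arrays left out and with the replicate block included, and the genes were Dusp5 and Dusp7 each time. Taken on its lowest-mean probe set alone, Dusp7 was not called (log2 change -0.10). In the double-drug group against control it went from 1 to 0 with a pseudocount of 64, without the filter, with quantile normalization, in the fit of 6 arrays and with the replicate block, and it was 0 to 1 with single arrays left out (0 in 8 of 9); at an unadjusted p under 0.05 it was 3 to 4 genes. Between the drug groups it went from 1 to 0 without the filter, in the fit of 6 arrays and with the replicate block, and was 0 to 1 with single arrays left out (0 in 8 of 9); at an unadjusted p under 0.05 it was 1 to 4 genes. The cause of these losses was not tested. The replicate block changed no other call of a phosphatase. Over all probe sets it moved the calls of cytochalasin D against control from 423 to 1044, of both drugs against control from 30 to 123, and between the drug groups from 70 to 99; between control and cytochalasin D not every array correlated best with its own number. The fit of 6 arrays called 159, 1 and 9 probe sets in these comparisons, and fits without the filter 289, 8 and 16. With both drugs against control 14 were called with a pseudocount of 64, 15 with quantile normalization, 74 with the 60th percentile filter and 48 with an intensity trend. With single arrays left out the numbers were 231 to 487, 0 to 42 and 3 to 59.

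Changes of sign came only in values that were not called. Dusp4 with cytochalasin D was 0.0058 with quantile normalization, and with single arrays left out it ranged from -0.0021 to 0.0005. With both drugs Dusp4 ranged from -0.1378 to 0.0346 over the same fits, and between the drug groups from -0.0357 to 0.1367. Both signs turned without the double-drug array of replicate 1. With both drugs Dusp10 ranged from -0.0106 to 0.3347 and Dusp14 from -0.086 to 0.1077. Between the drug groups Dusp8 ranged from -0.4205 to 0.4936. On the lowest-mean probe set, Dusp16 was -0.0085 with cytochalasin D and Dusp7 was 0.0112 between the drug groups. Signals near background (Dusp2, Dusp4) limit what could be seen. The 60th percentile filter gave no value for Dusp4.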
